A study of Arabidopsis thaliana with 6 samples.

Results

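FLC, MAF1 (also called FLM), MAF2, MAF3, MAF4, MAF5 and SVP are MADS-box genes whose proteins hold back flowering, and they were followed by gene ID through RNA-seq of Arabidopsis thaliana seedlings of 3 genotypes. They are 7 of the 32548 genes in the deposited table. All 7 had reads in every library and passed the filter on low values. The seedlings were 12 days old and grew on MS plates at 22 °C with 16 h of light and 8 h of dark, with no treatment. Whole seedlings gave the total RNA, and reads were single-end with 50 bases. There were 2 libraries of hac1hac5, which is mutated in the histone acetyltransferase genes HAC1 and HAC5, and 2 of med8med25, which is mutated in the Mediator subunit genes MED8 and MED25. Another 2 came from the wild-type accession Col-0. Neither the alleles nor whether a library pools plants or stands for an independent culture is given in the sources used here. The p-values therefore cover the spread between libraries as they were made, and that spread may be technical only.

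As background, FLC binds the flowering genes FT, SOC1 and FD together with SVP and represses them until winter cold has silenced FLC through Polycomb proteins. FRI and a set of chromatin factors activate FLC, and the autonomous pathway keeps it low. Col-0 carries a loss-of-function FRI allele and is known for low FLC and early flowering. MAF1 to MAF5 are the closest relatives of FLC. MAF1 acts with SVP in the response to ambient temperature, and MAF2 holds back flowering after short spells of cold.

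The 7 genes lie at 4 places in the genome. In the RefSeq TAIR10.1 annotation, FLC (AT5G10140) is on chromosome 5 from 3173382 to 3179448, on the minus strand. MAF2 (AT5G65050), MAF3 (AT5G65060), MAF4 (AT5G65070) and MAF5 (AT5G65080) follow each other on the plus strand of the same chromosome, from 25982254 to 26002619. MAF1 (AT1G77080) is on chromosome 1 from 28955483 to 28960234 and SVP (AT2G22540) on chromosome 2 from 9579647 to 9583901, both on the plus strand. Between aligned coding sequences, MAF2 and MAF3 shared 93.6% of bases and MAF4 and MAF5 shared 69.4%. FLC shared 75.1% with MAF3 and 61.8% with MAF4, and SVP shared between 49.1% and 52.7% with the other 6 genes. Despite this likeness, 97.5% of the 50-base exon windows of MAF3 and 99.7% of those of MAF1 occurred once in the genome, searched on both strands, and 100% did in the other 5 genes.

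The promoters below run from 250 bases before to 50 bases after the annotated start, 5′ to 3′, from the RefSeq TAIR10.1 genome. FLC, MAF4 and MAF5 are shown because their transcripts rose in both mutants. Capitals in FLC mark a G-box, CACGTG. Capitals in MAF4 and MAF5 mark the runs of at least 12 bases that those 2 promoters share exactly.
FLC, chr5:3179399-3179698, minus strand: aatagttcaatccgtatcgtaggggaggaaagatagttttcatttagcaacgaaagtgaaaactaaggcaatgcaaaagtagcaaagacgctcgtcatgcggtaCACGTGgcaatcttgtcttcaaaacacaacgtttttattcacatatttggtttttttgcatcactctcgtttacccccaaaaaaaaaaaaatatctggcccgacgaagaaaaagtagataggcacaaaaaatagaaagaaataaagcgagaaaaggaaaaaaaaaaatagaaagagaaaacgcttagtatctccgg
MAF4, chr5:25991943-25992242, plus strand: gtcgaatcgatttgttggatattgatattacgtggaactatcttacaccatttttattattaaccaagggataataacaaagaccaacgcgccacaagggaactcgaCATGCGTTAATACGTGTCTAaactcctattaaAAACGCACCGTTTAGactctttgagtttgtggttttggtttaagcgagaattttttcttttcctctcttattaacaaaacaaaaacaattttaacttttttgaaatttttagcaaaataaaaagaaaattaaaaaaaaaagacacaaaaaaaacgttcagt
MAF5, chr5:25997254-25997553, plus strand: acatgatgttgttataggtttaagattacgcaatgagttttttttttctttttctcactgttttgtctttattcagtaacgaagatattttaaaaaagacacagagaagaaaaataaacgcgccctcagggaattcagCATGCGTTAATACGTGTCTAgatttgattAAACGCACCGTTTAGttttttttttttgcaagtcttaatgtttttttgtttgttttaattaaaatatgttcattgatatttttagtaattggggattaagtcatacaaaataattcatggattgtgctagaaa
MAF4 and MAF5 shared a run of 20 bases, CATGCGTTAATACGTGTCTA, and a run of 15 bases, AAACGCACCGTTTAG. Each run was found in 2 of the 27443 promoters searched (0.0073%).

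MAF2 and MAF3 are shown for contrast, since they sit beside MAF4 and were not called in either mutant against Col-0. Capitals mark the runs of at least 12 bases that MAF2 and MAF3 share exactly.
MAF2, chr5:25982004-25982303, plus strand: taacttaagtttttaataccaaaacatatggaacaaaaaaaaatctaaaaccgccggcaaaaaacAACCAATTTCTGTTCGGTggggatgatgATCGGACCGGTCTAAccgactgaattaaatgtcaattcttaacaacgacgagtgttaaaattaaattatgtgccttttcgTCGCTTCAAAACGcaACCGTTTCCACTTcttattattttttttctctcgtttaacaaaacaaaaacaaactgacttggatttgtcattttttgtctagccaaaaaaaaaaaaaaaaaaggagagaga
MAF3, chr5:25987059-25987358, plus strand: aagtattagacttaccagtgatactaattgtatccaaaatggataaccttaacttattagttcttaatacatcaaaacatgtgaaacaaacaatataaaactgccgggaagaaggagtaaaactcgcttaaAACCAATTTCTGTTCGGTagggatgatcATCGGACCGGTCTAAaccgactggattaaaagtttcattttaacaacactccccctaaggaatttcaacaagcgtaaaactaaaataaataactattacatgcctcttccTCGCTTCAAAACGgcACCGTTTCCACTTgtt
The longest run shared by MAF2 and MAF3 had 18 bases, and MAF1 shared a run of 35 bases with MAF2. Low-complexity runs, with over 60% of a single base, were left out of this search. With those left out, no exact run of at least 12 bases joined MAF1, MAF2 or MAF3 to FLC, MAF4, MAF5 or SVP. A-rich runs do occur across these groups, as between MAF2 and MAF4. No run outside the low-complexity ones joined FLC or SVP to any other of the 7. Runs were compared on the same strand only. The G-box, searched on both strands, was in the FLC promoter at -146 from the start and in none of the other 6, against 7.68% of all 27443 promoters. CATGCA, the RY element, was in none of the 7 on either strand, against 9.72% of promoters, and the CArG box was also in none, against 3.05%. These matches describe the windows and do not show binding.

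Depth was between 24.9 and 36.8 M reads per library, and the first med8med25 library was the shallowest. Values are the authors' normalized counts, scaled to a common library of 32.6 M reads. Normalization factors of the libraries, recovered from the values, lay between 0.917 and 1.075. Deposited totals therefore differed, from 30.3 M in the second med8med25 library to 35.5 M in the second Col-0 library. In med8med25, MED8 had 307.1 and 322.9 normalized counts, against 846.6 and 855.3 in Col-0, and MED25 had 253.8 and 302.4, against 1236 and 1227. In hac1hac5, HAC1 had 2342 and 2875, against 3385 and 3529 in Col-0, and HAC5 had 800.7 and 1087, against 1233 and 1190. Transcripts of the targeted genes thus remained in every library, and HAC5 was just short of a call (log2 change -0.38, adjusted p = 0.05). HAC5 was called lower under 6 of the 13 alternatives tried for it after seeing the data, among them voom on the recovered reads and leaving out hac1hac5 library 2, with adjusted p between 0.005 and 0.27 over all 13. The HAC1 call (log2 change -0.41, adjusted p = 0.011) did not hold when either Col-0 library, or hac1hac5 library 1, was left out (adjusted p up to 0.089), or with total-count scaling. Of the markers, the 3 green-tissue genes summed to 897172 to 932613 normalized counts in hac1hac5, 728855 to 942551 in med8med25 and 1233090 to 1261107 in Col-0, and all 3 were detected. The 3 root hair genes summed to 408.8 to 421.1, 681.5 to 695.5 and 584.4 to 656.5 in the same order of genotypes, and the 3 seed genes to 887.9 to 3053, 379.3 to 980.9 and 1730 to 3527. The 6 floral organ genes summed to 21.36 to 37.5, 30.58 to 54.69 and 28.98 to 31.11. AP1 and AG had no read in hac1hac5 and AG had none in med8med25, and PI gave most of this sum in both mutants. The 3 shoot meristem genes summed to 20.65 to 21.67, 34.36 to 56.55 and 35.52 to 41.59, nearly all from STM, with WUS and CLV3 at 1 read or none in each library. The part of these shifts in tissue markers in the results below was not tested.

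FLC, MAF4 and MAF5 were the genes of the family that stood highest above Col-0 in hac1hac5. FLC had 386.9 and 311.8 normalized counts in the hac1hac5 libraries, from 428 and 363 reads, against 20.31 and 18.28 in Col-0, from 21 and 17 reads. Both hac1hac5 libraries were far above both Col-0 libraries. The mean was 349.3 ± 53.1 in hac1hac5 and 19.3 ± 1.43 in Col-0 (SD, n = 2 each), a log2 change of 4.10 (SE 0.17, 95% interval 3.72 to 4.48, adjusted p = 1.4e-06). Log2 changes here are of the normalized count plus 1, from limma over all 23898 genes tested, which understates the change of low genes. In whole seedlings, a change in the number of cells that express a gene and a change in RNA per cell cannot be told apart.

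MAF4, a repressor next to MAF5 in the tandem cluster, had 179.6 and 110.8 normalized counts in hac1hac5 (198 and 130 reads), against 14.48 and 17.13 in Col-0 (15 and 16 reads). The first hac1hac5 library was the higher one, and both were well above Col-0. Its log2 change was 3.08 (SE 0.28, 95% interval 2.45 to 3.72, adjusted p = 7.4e-05). MAF5, the last gene of the cluster, had 119.2 and 115.3 normalized counts in hac1hac5 (132 and 134 reads), against 19.3 and 23.55 in Col-0 (20 and 22 reads). Its hac1hac5 libraries were nearly equal. The log2 change was 2.41 (SE 0.19, 95% interval 1.96 to 2.85, adjusted p = 4.2e-05). Ranked by log2 change among the 23898 genes tested in hac1hac5, FLC stood at place 110, MAF4 at 260 and MAF5 at 486.

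The other 4 genes moved little in hac1hac5, and none of them was called. MAF1 had 1119 and 942.9 normalized counts in hac1hac5, against 874.8 and 766.6 in Col-0 (log2 change 0.33, 95% interval 0.05 to 0.60, adjusted p = 0.062). MAF2 had 1136 and 903.1, against 824.5 and 769.7 (0.35, 0.02 to 0.67, adjusted p = 0.09). MAF3 had 354.6 and 377.3, against 282.2 and 286.5 (0.36, -0.01 to 0.73, adjusted p = 0.11). In each of these genes both hac1hac5 libraries were above both Col-0 libraries by a narrow margin. Such separation is weak evidence with 2 libraries a genotype, and its share over all genes was not computed. SVP, the partner of FLC and MAF1, had 2448 and 2540 normalized counts in hac1hac5, against 2825 and 2787 in Col-0 (log2 change -0.17, 95% interval -0.34 to -0.00, adjusted p = 0.1). Its groups did not overlap either, and its sign turned with total-count scaling (0.01).

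Of the 7 genes, 3 rose, 0 fell and 4 were not called in hac1hac5, at an adjusted p under 0.05 in limma. Over all genes tested 38.4% were called, 17.4% higher and 21.0% lower, so 3 of 7 is near that background. At an unadjusted p under 0.05, 5 were higher and 1 lower, and limma voom on the recovered reads called 3 higher and 0 lower. The median log2 change of the 7 genes was 0.36 and that of all genes -0.02. All 3 called members were higher by at least 1 on the log2 scale, as were 1709 of the 4156 genes called higher, or 7.15% of all genes tested. The count depended on the fit for the small changes. With total-count scaling 6 of 7 were called higher, MAF1 (0.51, adjusted p = 0.022), MAF2 (0.53, adjusted p = 0.035) and MAF3 (0.54, adjusted p = 0.048) among them. That scaling put the median of all genes at 0.16, against -0.02, and the share of higher genes among all calls at 67.7%, against 45.3%. Fitted on the 4 libraries compared, all 7 were called, SVP lower. Over all genes 9166 were called, and leaving out Col-0 library 1 or library 2 brought that to 5588 or 5203.

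**Figure D1:**
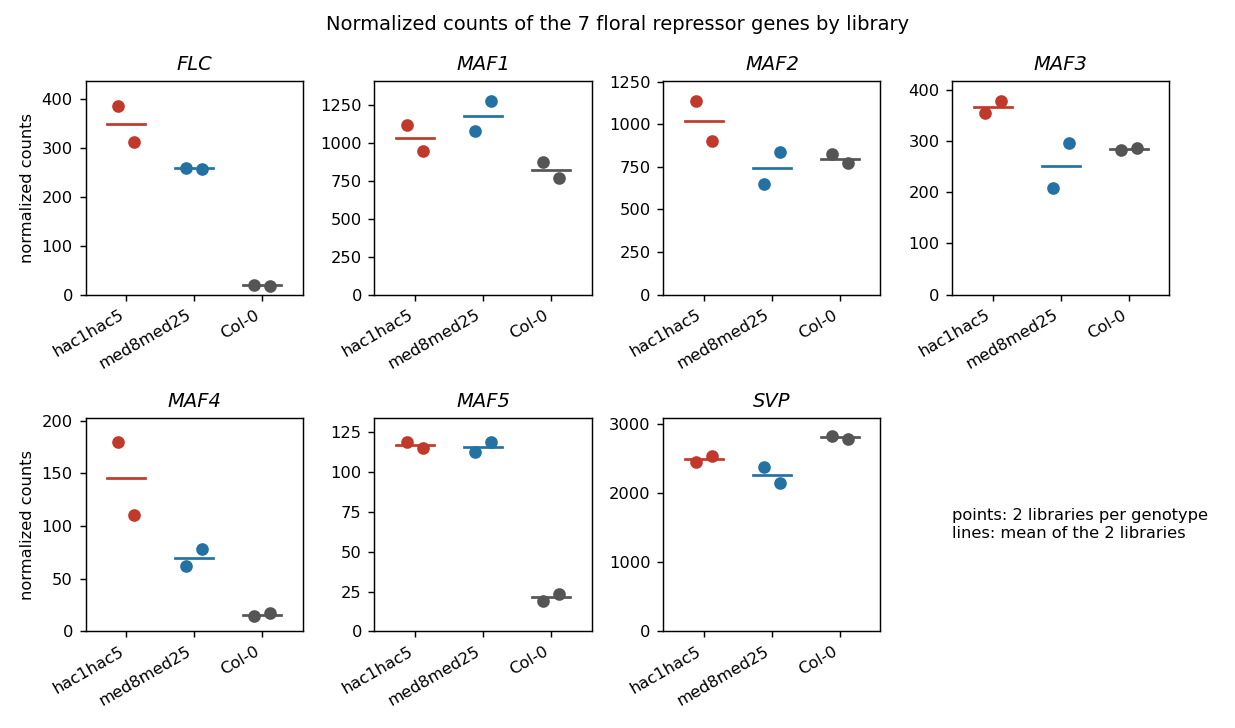
Normalized counts (vertical axes, linear, each with its own scale from 0) of the 7 genes in hac1hac5, med8med25 and Col-0. Points are the 2 libraries of a genotype and lines their means. FLC, MAF4 and MAF5 sit far above Col-0 in both mutants, with FLC at 386.9 and 311.8 in hac1hac5, 260.4 and 258 in med8med25, and 20.31 and 18.28 in Col-0.

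In med8med25, FLC, MAF4, MAF5 and, by a small margin, MAF1 were higher than in Col-0, and SVP was lower. FLC had 260.4 and 258 normalized counts in the med8med25 libraries, from 197 and 275 reads, against 20.31 and 18.28 in Col-0. Both med8med25 libraries were far above both Col-0 libraries, which are the same 2 that hac1hac5 was set against. Its mean was 259.2 ± 1.64 in med8med25 and 19.3 ± 1.43 in Col-0 (SD, n = 2 each), and its log2 change was 3.68 (SE 0.17, 95% interval 3.30 to 4.06, adjusted p = 9.5e-06). By log2 change FLC stood at place 15 of the 23898 genes, MAF5 at 106 and MAF4 at 193.

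MAF4 had 61.7 and 78.04 normalized counts in med8med25 (46 and 83 reads), against 14.48 and 17.13 in Col-0, a log2 change of 2.07 (SE 0.28, 95% interval 1.44 to 2.71, adjusted p = 0.0012). MAF5 had 112.7 and 119.2 (85 and 127 reads), against 19.3 and 23.55, a log2 change of 2.39 (SE 0.19, 95% interval 1.94 to 2.83, adjusted p = 1.1e-04). For both genes the med8med25 libraries were clear of the Col-0 libraries. MAF1 had 1075 and 1276 normalized counts in med8med25, against 874.8 and 766.6 in Col-0, a log2 change of 0.52 (SE 0.12, 95% interval 0.24 to 0.79, adjusted p = 0.015). That call was lost without the second Col-0 library (0.42, adjusted p = 0.13).

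SVP fell by 0.31 on the log2 scale. It had 2373 and 2149 normalized counts in med8med25, against 2825 and 2787 in Col-0, which gave a log2 change of -0.31 (SE 0.07, 95% interval -0.48 to -0.14, adjusted p = 0.016). The SVP call did not survive the loss of either Col-0 library (-0.30, adjusted p = 0.13, and -0.32, adjusted p = 0.11) and was also lost with total-count scaling (-0.15, adjusted p = 0.12). MAF2 and MAF3, the first genes of the tandem cluster, overlapped with Col-0. MAF2 had 650.1 and 838.4 normalized counts in med8med25, against 824.5 and 769.7 in Col-0 (log2 change -0.11, 95% interval -0.44 to 0.22, adjusted p = 0.61). MAF3 had 207.4 and 295.1, against 282.2 and 286.5 (-0.20, -0.57 to 0.17, adjusted p = 0.4). For both, the first med8med25 library was the low one. MAF3 was called lower without the second med8med25 library (-0.45, adjusted p = 0.024), and the signs of MAF2 and MAF3 turned without the first (0.07 and 0.05).

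Of the 7 genes, 4 rose, 1 fell and 2 were not called in med8med25. Of all genes tested 26.6% were called, 12.3% higher and 14.3% lower, and 790 of the 2929 genes called higher, or 3.31% of all tested, were higher by at least 1 on the log2 scale, as FLC, MAF4 and MAF5 were. The median log2 change of the 7 genes was 0.52 and that of all genes 0.00. Without the second Col-0 library 3 of the 7 were called, all higher. Total-count scaling put the median of all genes at 0.15 and the share of higher genes among all calls at 72.6%, against 46.1%. Over all genes 6350 were called, and leaving out Col-0 library 1 or library 2 brought that to 2706 or 2559. FLC, MAF4 and MAF5 were called higher than Col-0 in both mutants under every setting and with every library left out in turn.

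**Figure D2:**
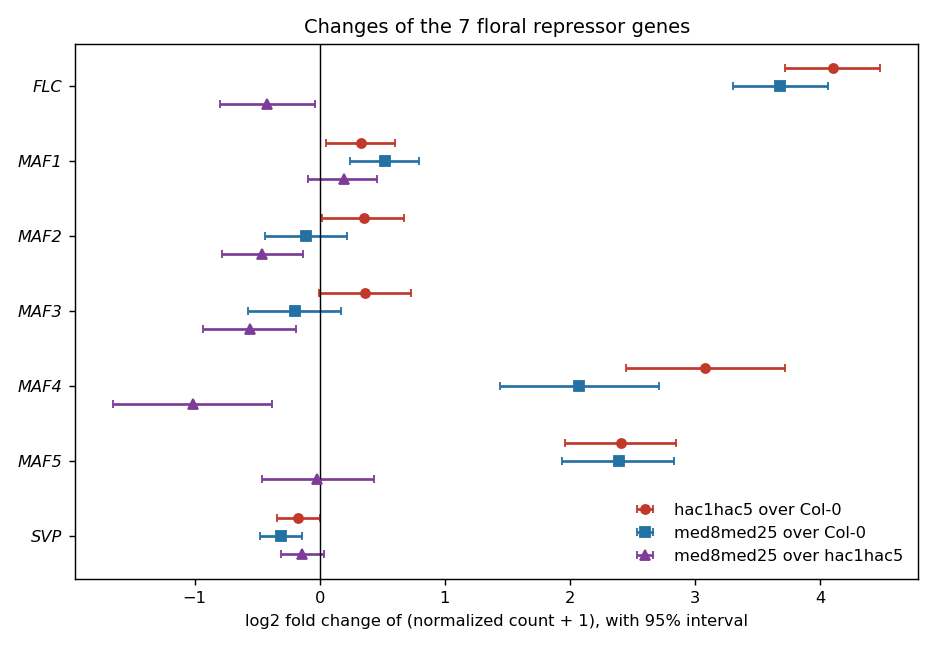
Log2 fold change (horizontal axis, of the normalized count plus 1) of the 7 genes, with 95% intervals from limma, for hac1hac5 over Col-0, med8med25 over Col-0 and med8med25 over hac1hac5. FLC at 4.10 and 3.68, MAF4 at 3.08 and 2.07 and MAF5 at 2.41 and 2.39 lie far right of 0 against Col-0, and MAF4 is lower in med8med25 than in hac1hac5 by 1.01.

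The direct comparison of the mutants asks where the family differs between them. MAF4 fell by 1.01 on the log2 scale in med8med25 relative to hac1hac5, with 61.7 and 78.04 normalized counts against 179.6 and 110.8 (SE 0.28, 95% interval -1.65 to -0.38, adjusted p = 0.019). MAF3 had 207.4 and 295.1 in med8med25 and 354.6 and 377.3 in hac1hac5 (log2 change -0.56, SE 0.16, adjusted p = 0.024). MAF2 had 650.1 and 838.4 in med8med25 and 1136 and 903.1 in hac1hac5 (-0.46, SE 0.14, adjusted p = 0.033). These 3 neighbours in the cluster were thus lower in med8med25. Their libraries did not overlap, which is weak evidence with 2 libraries a genotype, and the share of all genes without overlap was not computed. In this comparison 41.4% of all genes were called.

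MAF5, which follows MAF4 in the cluster, had a log2 change of -0.02 between the mutants (95% interval -0.46 to 0.43, adjusted p = 0.96), and its libraries overlapped. FLC was not called (log2 change -0.42, 95% interval -0.80 to -0.04, adjusted p = 0.074), although both med8med25 libraries were below both hac1hac5 libraries. It was called with voom (-0.42, adjusted p = 0.028). MAF1 (0.19, 95% interval -0.09 to 0.46, adjusted p = 0.24) and SVP (-0.14, 95% interval -0.31 to 0.03, adjusted p = 0.15) were not called either.

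In all, 0 of the 7 genes were higher, 3 lower and 4 not called in med8med25 against hac1hac5. There limma called 41.4% of all genes, 20.9% higher and 20.5% lower, so 3 of 7 called is near that background. At an unadjusted p under 0.05 the counts were 0 higher and 4 lower, as with voom. The 3 calls rested on single libraries. Without the first hac1hac5 library 0 of 7 were called: MAF2 was at -0.29 (adjusted p = 0.21), MAF3 at -0.61 (adjusted p = 0.079) and MAF4 at -0.67 (adjusted p = 0.14). Without the first med8med25 library MAF2 was at -0.27 (adjusted p = 0.14), MAF3 at -0.31 (adjusted p = 0.07) and MAF4 at -0.85 (adjusted p = 0.076), and SVP was the single gene called (-0.21, adjusted p = 0.038). MAF3 was also lost without the second hac1hac5 library (-0.52, adjusted p = 0.12), and MAF2 in a fit on the 4 libraries compared (-0.46, adjusted p = 0.055).

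To compare levels between genes, normalized counts were divided by the length of annotated exon. In Col-0, SVP was highest at 1567 ± 15 normalized counts per kb of exon (SD, n = 2). MAF2 at 235.5 ± 11.5, MAF3 at 194.2 ± 2.09 and MAF1 at 183.2 ± 17.1 formed a middle group, in which MAF1 and MAF3 did not differ beyond their spread. MAF5 at 17.46 ± 2.45, FLC at 16.35 ± 1.21 and MAF4 at 9.602 ± 1.14 were the lowest, and MAF5 and FLC did not differ beyond their spread.

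In hac1hac5, SVP at 1393 ± 36.4 was still the highest per kb. MAF2 at 301.3 ± 48.7 and FLC at 296.1 ± 45 overlapped, as did MAF3 at 250 ± 11 and MAF1 at 230.1 ± 27.8 (SD, n = 2). Both FLC libraries were above both MAF3 libraries, by 264.2 against 257.7 at the closest. FLC therefore stood among MAF1 to MAF3, while MAF5 at 95.56 ± 2.25 and MAF4 at 88.21 ± 29.6 stayed below them and did not differ beyond their spread. In med8med25 the order per kb was SVP at 1262 ± 88.5, MAF1 at 262.3 ± 31.6, MAF2 at 219.9 ± 39.3, FLC at 219.7 ± 1.39, MAF3 at 171.6 ± 42.4, MAF5 at 94.5 ± 3.77 and MAF4 at 42.45 ± 7.02. MAF1 overlapped with MAF2 and MAF2 with FLC there, FLC was above MAF3 in every library pair, and MAF4 was clear of MAF5.

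These orders depend on the length used, because the annotation joins the exons of all isoforms. MAF1 had 4480 bases of exon and 888 of coding sequence, and FLC had 1180 and 678. Per kb of coding sequence, MAF1 was at 1161 in hac1hac5, 1324 in med8med25 and 924.2 in Col-0, and FLC at 515.3, 382.3 and 28.46, so that FLC was then below MAF1 in all 3 genotypes. FLC had 376 exon bases free of exons of other annotated genes, a length chosen after seeing the data. Per kb of these, FLC was at 929.1 in hac1hac5, 689.4 in med8med25 and 51.32 in Col-0. It was then above MAF1 to MAF3 per kb of exon in both mutants. That length applies only if reads on shared bases were not counted, which is not known. Per kb, SVP was the highest of the 7 in each genotype with any of these lengths.

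**Figure D3:**
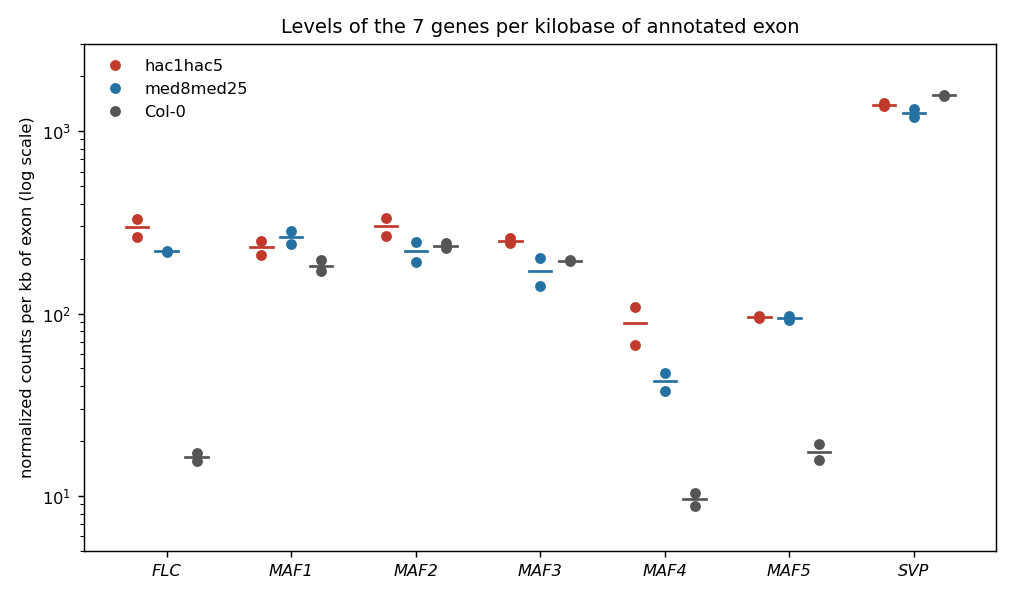
Normalized counts per kb of annotated exon (vertical axis, log scale) of the 7 genes in hac1hac5, med8med25 and Col-0. Points are libraries and lines the mean of 2. FLC is at 296.1 in hac1hac5 and 219.7 in med8med25, within the range of MAF1, MAF2 and MAF3, and at 16.35 in Col-0, beside MAF5.

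The genes around the raised members were examined for changes of their own. The annotated long non-coding RNA AT5G01675 runs antisense to FLC from 3173371 to 3179600 on chromosome 5, and its span covers that of FLC whole. Of the 50-base exon windows of FLC, 12.0% (96 of 802) were free of exons of other annotated genes. AT5G01675 had 11 and 8 reads in hac1hac5, 4 and 4 in med8med25, and 1 and 0 in Col-0, and was called higher in hac1hac5 (adjusted p = 0.0042) and med8med25 (adjusted p = 0.028). The med8med25 call was lost without the second Col-0 or the first med8med25 library (adjusted p up to 0.16), with voom on the recovered reads and in the fit on the 4 libraries compared. How strand and reads on more than 1 gene were treated is not given in the sources used here, so reads of FLC and of its antisense gene cannot be told apart.

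Of the 4 protein-coding genes that flank FLC, none was called higher than in Col-0 in either mutant. AT5G10130 had log2 changes of -0.26 in hac1hac5 (adjusted p = 0.44) and 0.21 in med8med25 (adjusted p = 0.57), and AT5G10120 had -0.81 (adjusted p = 0.36) and -0.28 (adjusted p = 0.78). On the other side AT5G10150 had -0.32 (adjusted p = 0.051) and 0.18 (adjusted p = 0.27), and it was called lower in hac1hac5 under 5 of 13 alternatives, voom among them. AT5G10160 fell in both mutants, by 0.71 in hac1hac5 (adjusted p = 2.0e-04) and by 0.28 in med8med25 (adjusted p = 0.029), and the second of these calls was lost without either Col-0 library (adjusted p up to 0.19), with total-count scaling and with the replicate block. Between the mutants, AT5G10150 (0.50, adjusted p = 0.0079) and AT5G10160 (0.43, adjusted p = 0.0028) were higher in med8med25 than in hac1hac5. The AT5G10150 call was lost without hac1hac5 library 1, and the AT5G10160 call held under every setting. Of all genes 41.4% were called in this comparison.

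Around the MAF2 to MAF5 cluster, the flanking genes AT5G09295, AT5G65040, BST1 and AT5G65100 were not called in hac1hac5. In med8med25, AT5G65040 had a log2 change of 0.61 (adjusted p = 0.039), lost without the second Col-0 or the second med8med25 library (adjusted p up to 0.27), with no filter, in the fit on 4 libraries and with the replicate block. AT5G65100, whose annotation overlaps that of BST1 at one end, had 6.698 and 7.513 normalized counts in med8med25, against 1.928 and 2.149 in Col-0 (adjusted p = 0.038), and that call was lost with any one of the 4 libraries left out (adjusted p up to 0.16) and under 4 other settings, voom among them. Within the cluster the large changes therefore belonged to MAF4 and MAF5, with MAF2 and MAF3 between 0.36 and -0.20 in the 2 comparisons with Col-0.

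Beside MAF1, AT1G77060 was at a log2 change of -0.56 in med8med25 (adjusted p = 0.0022) and AT1G77030 at 0.48 (adjusted p = 0.0046), which did not hold without Col-0 library 1 (adjusted p = 0.057). Neither was called in hac1hac5 (-0.00, adjusted p = 0.98, and 0.06, adjusted p = 0.6). AT1G77090, on the other side of MAF1, and AT2G22530, NET2D and NIC1 beside SVP were not called in either mutant against Col-0, although AT2G22530 was called higher in hac1hac5 with total-count scaling (adjusted p = 0.023). AT1G77093 had at most 2 reads in a library and AT2G22520 had none.

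**Figure D4:**
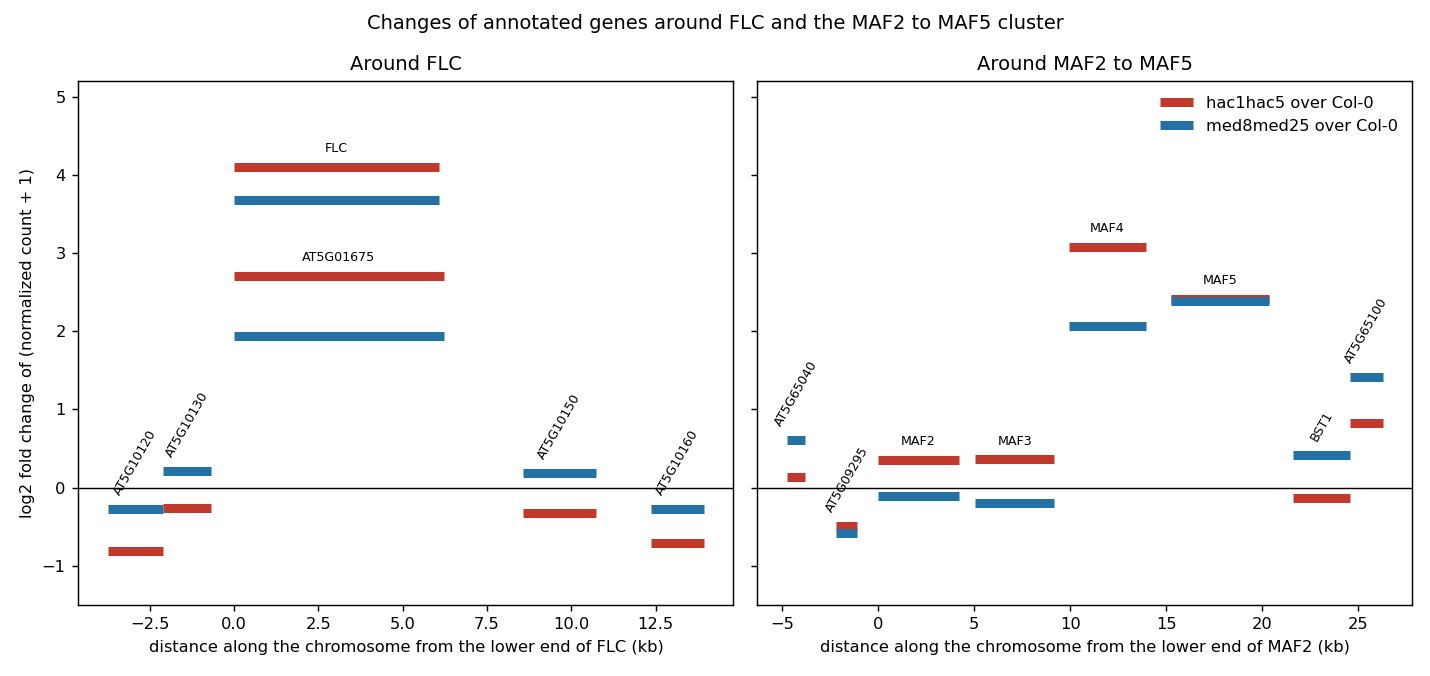
Log2 fold change (vertical axis, of the normalized count plus 1) of annotated genes around FLC and around MAF2 to MAF5, drawn as bars from start to end along the chromosome (horizontal axis, kb from the lower end of FLC or of MAF2), for hac1hac5 and med8med25 over Col-0. FLC, its antisense gene AT5G01675, MAF4 and MAF5 stand above their neighbours, and MAF2 and MAF3 lie near 0.

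The genes whose profile over the 6 libraries lay nearest to that of FLC were taken by the Euclidean distance between log2 profiles centred on Col-0. They were MYB15, a MYB transcription factor gene, at a distance of 0.97, ACS6, which encodes an enzyme of ethylene synthesis, at 1.10, AT5G19240 at 1.18, HSD6, a hydroxysteroid dehydrogenase gene, at 1.33, and AT5G40000 at 1.35. MYB15 had 314.5 and 386.5 normalized counts in hac1hac5, 194.6 and 166.8 in med8med25, and 17.36 and 22.46 in Col-0. It thus had the same order of genotypes as FLC, with med8med25 farther below hac1hac5. Of the family, MAF4 at 2.73 stood at place 78 of 23897 genes by nearness to FLC and MAF5 at 3.04 at place 111. MAF1 at 6.97, MAF2 at 7.55, MAF3 at 7.64 and SVP at 8.28 were at places 3893, 8029, 9038 and 17535. These distances describe the 6 libraries and carry no test.

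Genes that act upstream of FLC were taken next. Of 23 activators of FLC that were tested, 0 rose and 4 fell in hac1hac5, where 17.4% of all genes were called higher and 21.0% lower. In med8med25, 1 rose and 2 fell, against 12.3% and 14.3% of all genes. The median log2 changes of the list were -0.04 and -0.05. FRI, an activator of FLC whose Col-0 allele is not functional, was at -0.08 in hac1hac5 (adjusted p = 0.64) and -0.16 in med8med25 (adjusted p = 0.39). FES1, a partner of FRI, fell by 0.37 in hac1hac5 (adjusted p = 0.013), and VIP4 of the Paf1 complex was at -0.29 (adjusted p = 0.027). UBC2, an enzyme of histone H2B ubiquitination, was at -0.23 in hac1hac5 (adjusted p = 0.026), named after its value was seen, and at -0.51 in med8med25 (adjusted p = 0.0012), and its relative UBC1 was at -0.25 in hac1hac5 (adjusted p = 0.038) and -0.31 in med8med25 (adjusted p = 0.022). CDC73, also of the Paf1 complex, was at 0.29 in med8med25 (adjusted p = 0.036). In med8med25 the UBC2 call held under every setting, while UBC1 and CDC73 were lost without either Col-0 library, CDC73 also without med8med25 library 1 and with the replicate block (adjusted p up to 0.26), and UBC1 also with total-count scaling. In hac1hac5, FES1, UBC1 and UBC2 were lost with any one of the 4 libraries left out, and VIP4 without either Col-0 library or hac1hac5 library 1. With total-count scaling 2 activators rose and 0 fell in hac1hac5.

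Among the 14 genes of the autonomous pathway, which keep FLC low, limma and voom each called 0 in hac1hac5, with 0 higher and 1 lower at an unadjusted p under 0.05, where limma called 38.4% of all genes. In med8med25, where it called 26.6%, 1 of the 14 passed. SKB1, an arginine methyltransferase, was called at 0.43 on the log2 scale (adjusted p = 0.029), which did not hold without either Col-0 library or the first med8med25 library (adjusted p up to 0.15). The median log2 changes were -0.05 and 0.07. With total-count scaling, 4 rose in hac1hac5 and 3 in med8med25.

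Of the 14 Polycomb and vernalization genes, 4 rose and 2 fell in hac1hac5, and 0 rose and 1 fell in med8med25, with median log2 changes of 0.06 and -0.01. Of all genes 38.4% were called in hac1hac5 and 26.6% in med8med25, so 6 of 14 in hac1hac5 is near that background. VRN5, a PHD-finger protein that acts with Polycomb at FLC, rose by 0.48 in hac1hac5 (adjusted p = 0.0033), and LHP1, which reads the Polycomb mark, by 0.34 (adjusted p = 0.036). The LHP1 call was lost with any one of the 4 libraries left out (adjusted p up to 0.25). SWN (0.31, adjusted p = 0.011) and VRN2 (0.28, adjusted p = 0.022) also rose and MSI1 fell by 0.31 (adjusted p = 0.018), all 3 subunits of Polycomb complexes that were named after their values were seen. With 1 library left out between 1 and 2 of the list rose and 0 fell, and VRN5 was called each time. VIN3, the cold-induced partner of VRN5, had 0 and 1 reads in hac1hac5, 0 and 1 in med8med25, and 5 and 4 in Col-0, too few for a fold change (adjusted p = 0.032 and 0.047). In med8med25 VIN3 was the single call, and voom called 0.

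Downstream of FLC and SVP, several activators of flowering had lower transcript levels in both mutants. Of 14 floral integrators and activators 11 were tested: 0 rose and 7 fell in hac1hac5, and 0 rose and 5 fell in med8med25, against 21.0% and 14.3% of all genes called lower. Their median log2 changes were -0.82 and -1.23, against -0.02 and 0.00 over all genes. At an unadjusted p under 0.05, 0 were higher in either mutant, and voom called the same numbers. With 1 library left out the lower calls were between 3 and 4 in hac1hac5 and between 4 and 5 in med8med25. TSF, SPL3 and SPL15 had too few reads to be tested.

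SEP3, a floral MADS-box activator, had 8.17 and 5.943 normalized counts in hac1hac5, 7.713 and 4.647 in med8med25, and 97.55 and 111.5 in Col-0. It was the most lowered of the list in both mutants (log2 change -3.72, adjusted p = 8.2e-05, and -3.91, adjusted p = 1.6e-04). FUL, an activator of the floral transition, had 7.081 and 13.11 in hac1hac5, 5.337 and 5.629 in med8med25, and 41.51 and 48.21 in Col-0 (-2.10, adjusted p = 0.0025, and -2.82, adjusted p = 0.0011). Both genes were called under every setting. FT, the mobile signal that FLC represses, had 4.533 and 3.394 normalized counts in hac1hac5, 7.478 and 1.806 in med8med25, and 19.37 and 14.04 in Col-0 (-1.83, adjusted p = 0.032, and -1.84, adjusted p = 0.041). The FT call was lost in hac1hac5 with any one of the 4 libraries left out (adjusted p up to 0.16). In med8med25 it was lost without either Col-0 library or the second med8med25 library (adjusted p up to 0.2) and in the fit on 4 libraries, and in both mutants with a pseudocount of 0.1.

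SOC1, the integrator that FLC and SVP bind, separated the mutants. It had 1781 and 2518 normalized counts in hac1hac5, 853.1 and 785.3 in med8med25, and 3033 and 3009 in Col-0. The log2 change was -0.51 in hac1hac5 (adjusted p = 0.021) and -1.88 in med8med25 (adjusted p = 7.4e-05), and SOC1 was lower in med8med25 than in hac1hac5 by a log2 change of -1.37 (adjusted p = 2.0e-04). The groups did not overlap. In hac1hac5 the call did not hold without either Col-0 library, without hac1hac5 library 1 (adjusted p up to 0.094) or with total-count scaling, and the change ran from -0.76 to -0.26 over all settings. AGL24, a MADS-box activator that acts with SOC1, was at -0.82 in hac1hac5 (adjusted p = 0.015) and -1.23 in med8med25 (adjusted p = 0.0039), and FD, the partner of FT, at -0.92 in hac1hac5 (adjusted p = 0.0067). These 2 were named after their values were seen, and in hac1hac5 AGL24 was lost without Col-0 library 1, without hac1hac5 library 2 and with total-count scaling, and FD without Col-0 library 2. AP1, a gene of floral meristem identity, had no read in hac1hac5, 0 and 1 in med8med25, and 3 and 5 in Col-0 (adjusted p = 0.019 in hac1hac5), a call lost without either hac1hac5 library (adjusted p up to 0.076). The 6 floral organ markers, which include AP1, ranged from 21.36 to 37.5 summed normalized counts in hac1hac5, 30.58 to 54.69 in med8med25 and 28.98 to 31.11 in Col-0. These sums mix opposite moves. PI had 14.06 and 33.33 normalized counts in hac1hac5, 26.34 and 46.21 in med8med25, and 12.57 and 11.82 in Col-0. AG had 0 in both mutants and 5.799 and 5.38 in Col-0, and SEP1, not called, was also below Col-0 in both. AP3 and SEP2 had 6 reads or fewer in each library. The part of these markers in the lower values of SEP3, FUL and AP1 was not tested.

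Repressors of flowering outside the FLC clade went in both directions. Of 11 tested, 5 rose and 3 fell in hac1hac5, and 2 rose and 2 fell in med8med25, with median log2 changes of 0.37 and -0.06. Of all genes 17.4% were called higher and 21.0% lower in hac1hac5, and 12.3% higher and 14.3% lower in med8med25. SMZ, an AP2-like repressor of FT, rose by 1.30 in hac1hac5 (adjusted p = 7.9e-04) and 1.03 in med8med25 (adjusted p = 0.0045). Its relative TOE1 had 4649 and 4625 normalized counts in hac1hac5, 2482 and 2381 in med8med25, and 2193 and 2219 in Col-0, a rise of 1.07 in hac1hac5 (adjusted p = 9.7e-06). TEM1, a repressor of FT, fell by 1.13 in med8med25 (adjusted p = 7.4e-05), and TFL1, which keeps meristems from turning floral, was at -1.68 in hac1hac5 (adjusted p = 0.0075). TFL1 had few reads, 5 and 6 in hac1hac5 against 20 and 15 in Col-0. TOE3 was at -0.50 in med8med25 (adjusted p = 0.023). The other calls, named after their values were seen, were TOE2 (0.66 in hac1hac5 and 0.46 in med8med25), SNZ (0.58), AGL18 (0.37), AP2 (-0.60) and TEM1 (-0.84) in hac1hac5, with adjusted p of at most 0.021. The TFL1 call was lost without Col-0 library 1 (adjusted p = 0.06), AGL18 with any one of the 4 libraries left out, SNZ without Col-0 library 1 or hac1hac5 library 2, and TOE3 without either Col-0 library or the second med8med25 library (adjusted p up to 0.14) and with total-count scaling.

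**Figure D5:**
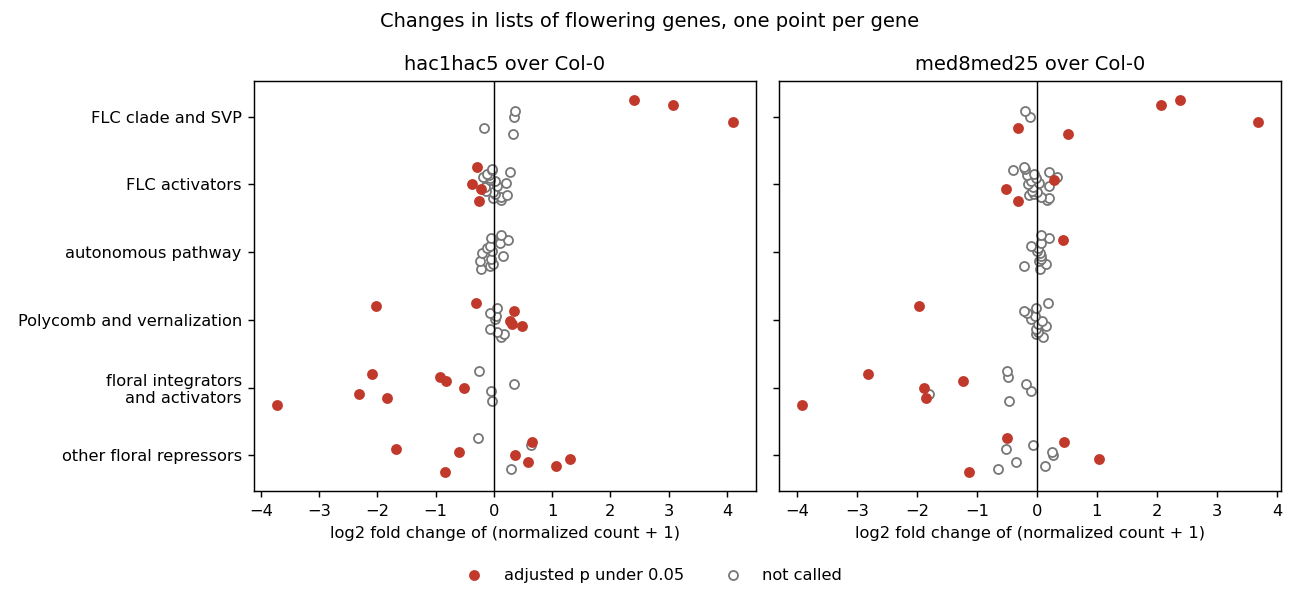
Log2 fold change (horizontal axis, of the normalized count plus 1) of every tested gene in 6 lists of flowering genes, for hac1hac5 over Col-0 and med8med25 over Col-0. Filled points were called at an adjusted p under 0.05. FLC, MAF4 and MAF5 lie above 2, the activators of FLC and the autonomous pathway lie near 0, and SEP3 at -3.72 and -3.91 is the lowest floral activator.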

How the data were processed

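RNA-seq libraries of hac1hac5, med8med25 and Col-0 seedlings, 2 each, were grouped by their labels. Per the submitters' processing notes, HISAT2, featureCounts and edgeR were used with TAIR10. The sources used here give no version, annotation or strand setting. The authors deposited a normalized signal, not raw reads, called normalized counts here. All 195288 values equalled, within a relative difference of 1e-06, a quantile adjustment of whole reads to a common library of 32.6 M reads, which gave the reads behind each value. Reads are not independent molecules, so depth covers counting error only.

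The test was limma 3.58.1 (R 4.3.3) with a trend, on log2(normalized count + 1), for the 23898 genes that reached 1 normalized count in 2 or more of the 6 libraries. Genotype was the only term, with 3 residual and 5.28 prior degrees of freedom. P-values were two-sided and Benjamini-Hochberg adjusted over all genes tested, with calls under 0.05. Count models planned for raw counts were not used on this signal, and voom on the recovered reads was an alternative. The fit and the recovery of reads were tested on simulated data. Other alternatives were pseudocounts of 0.1 and 5, other filters and scalings, fits on 4 libraries, the replicate block and leaving out each library. Promoters, exons and neighbours came from RefSeq TAIR10.1 with Biopython 1.88.

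Named genes were the 7 family genes, the targeted genes, up to 3 called genes of largest change per list and comparison, 2 neighbours on each side, overlapping genes, and the 5 profiles nearest to FLC. FLX was left out of its list because its symbol did not match. The family and the lists were chosen with earlier results of these data known.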

Additional observations from a re-analysis of the deposited data

How the results depend on the processing

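FLC, MAF4 and MAF5 against Col-0 kept direction and call under every alternative: FLC at 3.86 to 4.28 in hac1hac5 and 3.44 to 3.84 in med8med25 on the log2 scale, MAF4 at 2.74 to 3.43 and 1.84 to 2.24, and MAF5 at 2.21 to 2.58 and 2.20 to 2.54. Over the 7 genes and 3 comparisons, leaving out a library left 68 of the results on the same side of the threshold, and 10 lost a call, 2 gained one and 4 changed sign; under the other settings these counts were 176, 2, 9 and 2. The family count in hac1hac5 was 6 with total-count scaling and 7 in the fit on 4 libraries, against 3. With a library left out it was 3 to 3 in hac1hac5, 3 to 6 in med8med25 and 0 to 3 in med8med25 against hac1hac5, and all-gene counts were 5203 to 6556, 2559 to 6877 and 6853 to 9958, against 9166, 6350 and 9887. The sign turned for SVP in hac1hac5 (0.01) and MAF2 in med8med25 (0.05) with total-count scaling, and with a library left out for MAF2 (-0.29 to 0.07) and MAF3 (-0.45 to 0.05) in med8med25 and MAF5 between the mutants (-0.06 to 0.02); the cause was not tested.

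Per kb of coding sequence, levels in hac1hac5, med8med25 and Col-0 were 515.3, 382.3 and 28.46 for FLC, 1161, 1324 and 924.2 for MAF1, 1520, 1109 and 1188 for MAF2, 539.8, 370.6 and 419.4 for MAF3, 152.4, 73.32 and 16.58 for MAF4, 174.2, 172.3 and 31.83 for MAF5, and 3450, 3127 and 3881 for SVP; the shorter length raises every value. Per kb of the 376 exon bases of FLC free of exons of other genes, a length chosen after seeing the data, FLC was at 929.1, 689.4 and 51.32.

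Libraries with the same replicate number did not deviate together (correlations of -0.096, -0.008 and -0.04). These correlations cannot show that the samples were unpaired. With the replicate block 8234, 5357 and 9004 genes were called in the 3 comparisons, and 3, 5 and 3 of the family, with no family call changed. Called genes of the other lists and neighbours, tried under the same settings after seeing the data, kept their call throughout in 10 of 28, 11 of 22 and 11 of 25 cases. With 2 libraries a genotype, the calls of MAF1, MAF2, MAF3 and SVP depended on single libraries or on the scaling.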
